A study of Mus musculus with 359 samples.

Results

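Adipoq, Plin1, Cfd, Lep, Cidec and Ucp1 are 6 genes that fat cells use, and they were followed here across the mouse lung libraries of the study. They are 6 of the 24421 genes in each count table and were taken by name, as a list drawn up with earlier results of these data known. The lungs came from B6C3F1 mice, a hybrid strain, of both sexes, that received 4-methylimidazole (4-MEI), a small nitrogen heterocycle formed when food is browned, or its vehicle. Day 2 animals were dosed by gavage with 50, 100, 200 or 300 mg/kg-d, while day 5 and day 28 animals received feed with 150, 300, 1250 or 2500 ppm, and each day had vehicle animals of both sexes. All groups shared strain, organ and a stranded mRNA library kit, and differed in 4-MEI dose, sex, day and route. Of the 30 groups of sex, dose and day, 29 held 6 libraries and 1 held 5, the day 5 females at 2500 ppm. Ages were not given in the sources used here, nor was it stated whether a library was 1 animal, so p-values measure the spread between these libraries. Libraries are called below by the number in their title, and those of day 5 by number and organ as in the title (Lung_139).

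White adipocytes store triglyceride in 1 large lipid droplet and secrete hormones into blood, while brown adipocytes burn fat to make heat. Adipoq encodes adiponectin, a hormone secreted by fat cells. Cfd encodes complement factor D, also called adipsin, a protease of the alternative complement pathway. Lep encodes leptin, the satiety hormone whose level follows fat mass. Plin1 and Cidec encode lipid droplet proteins, the first guarding droplet fat from lipases and the second driving droplets to fuse and enlarge. Ucp1 encodes the uncoupling protein of brown and beige fat mitochondria, which turns the proton gradient into heat. Lung lobes lie beside mediastinal fat, and the lung itself holds lipid-laden fibroblasts, so a homogenised lung can contain several sources of such transcripts. In such bulk libraries fewer cells of a type and less RNA per cell cannot be told apart.

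The 250 bases before the start sites of Adipoq, Lep and Ucp1, 1 gene for each pattern described below, are shown because these genes were high together in some libraries and apart in others. The sequences are from RefSeq (build GRCm38.p6), written 5′ to 3′ on each gene's own strand, at chr16:23146286-23146535 (+) for Adipoq, chr6:29059971-29060220 (+) for Lep and chr8:83290098-83290347 (+) for Ucp1. Capitals mark matches, on either strand, to 4 motifs: TTGCNNAA, a core of C/EBP sites, AGGTCA, the core of PPAR and other nuclear receptor sites, TATAAA and CCAAT.
Adipoq: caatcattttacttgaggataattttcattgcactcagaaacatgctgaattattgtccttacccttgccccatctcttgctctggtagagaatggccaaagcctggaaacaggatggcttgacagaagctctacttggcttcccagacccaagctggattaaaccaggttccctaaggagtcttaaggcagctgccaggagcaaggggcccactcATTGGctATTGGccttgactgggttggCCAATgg
Lep: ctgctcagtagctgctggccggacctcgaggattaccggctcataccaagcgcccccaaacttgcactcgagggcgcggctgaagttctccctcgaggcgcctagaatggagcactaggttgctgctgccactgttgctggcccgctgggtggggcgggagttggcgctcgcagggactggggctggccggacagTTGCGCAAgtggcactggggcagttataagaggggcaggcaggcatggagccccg
Ucp1: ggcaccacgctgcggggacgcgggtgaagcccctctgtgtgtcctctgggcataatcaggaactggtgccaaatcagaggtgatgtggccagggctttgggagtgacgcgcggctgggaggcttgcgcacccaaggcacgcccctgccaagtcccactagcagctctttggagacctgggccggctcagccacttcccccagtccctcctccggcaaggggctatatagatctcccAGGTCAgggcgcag

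The Adipoq window held 3 copies of CCAAT, the Lep window 1 copy of TTGCNNAA and the Ucp1 window 1 copy of AGGTCA. In all 32851 RefSeq promoter windows of that length the motifs were found in 33.8% (CCAAT), 9.56% (TTGCNNAA) and 12.4% (TATAAA), and AGGTCA in 4607 windows. Plin1 held 2 copies of TTGCNNAA, the second of the 2 Cidec start sites held 1, and Cfd held none of the 4. These matches describe letters in a window and say nothing of binding.

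In the GENCODE M21 annotation of GRCm38, the build named in the submitters' processing notes as mm10, Adipoq spans chr16:23146536-23158028, Plin1 chr7:79720218-79732903, Cfd chr10:79890853-79892655, Lep chr6:29060220-29073877, Cidec chr6:113424634-113435760 and Ucp1 chr8:83290352-83298452. No other annotated gene overlaps any of them. Values below are CPM, read counts scaled to a common library total after TMM normalisation, from 7253910 to 21473135 counts per lung library. At these totals 3 counts correspond to 0.143 to 0.407 CPM (median 0.194), so the lowest values rest on 1 to 3 counts.

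The lung label held: Scgb1a1, the club cell secretory protein, was at 21944 to 108560 CPM and Sftpc, the surfactant protein of alveolar type 2 cells, at 11487 to 44555 CPM in all lung libraries. Expression of Y-linked genes matched the sex in the title in every lung library. In 48 lung libraries of day 28 the other label fields name a different dose from the title, and in 24 a different sex, and titles were followed throughout. The 180 liver libraries give the level in another organ. There Adipoq reached at most 1.78 CPM, Lep 0.0849 CPM and Ucp1 0.0663 CPM, while Cidec ran between 0.116 and 4.81 CPM.

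The secreted proteins varied over several orders of magnitude between lung libraries. Adipoq was 0 in 5 libraries, had a median of 5.75 CPM and peaked at 617 CPM in Lung_139, a day 5 female at 1250 ppm. It passed 100 CPM in 5 libraries, all female, and 8 libraries passed 50 CPM, of which 7 were female. These were Lung_139, 171, 185, Lung_111 and Lung_141 above 100 CPM and 238, Lung_123 and 161 below it. Number 171, a day 28 vehicle female, was second at 397 CPM, so a high value occurred with and without 4-MEI. In 35 libraries, 15 female and 20 male, Adipoq was below 1 CPM. Cfd had a median of 34.5 CPM and reached 2829 CPM in number 171 and 2189 CPM in Lung_139.

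**Figure D1:**
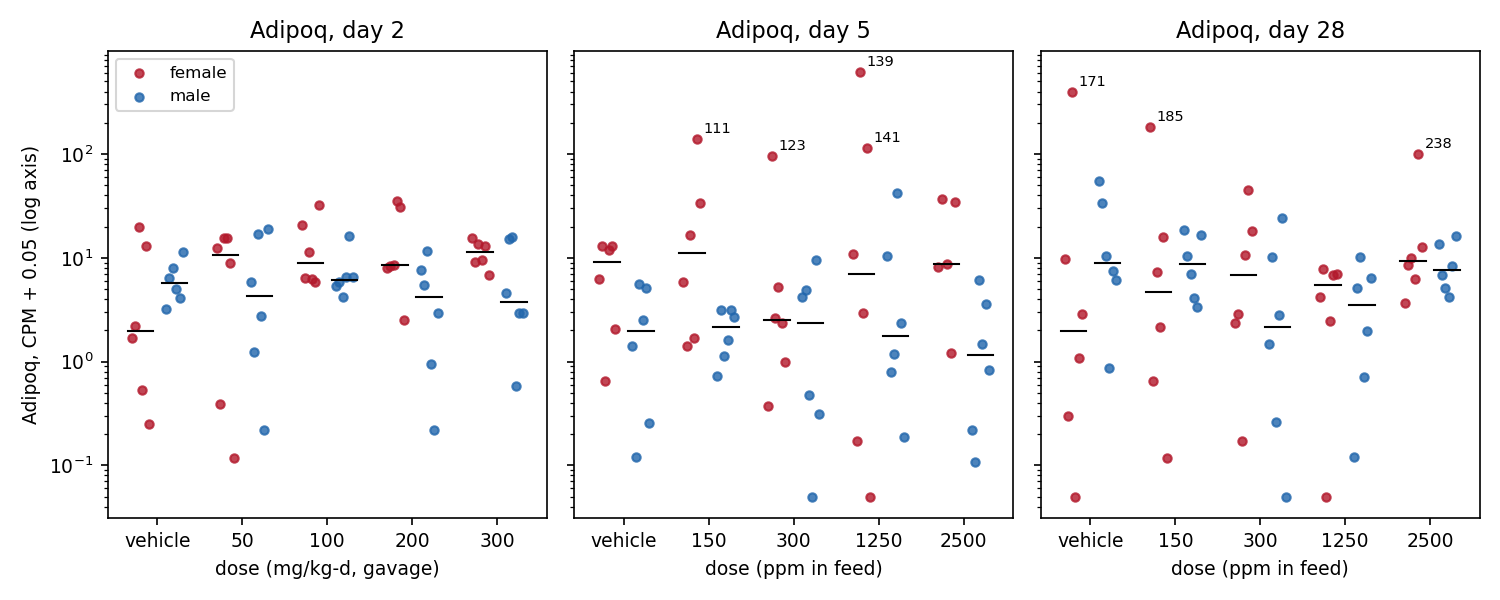
Adipoq (CPM + 0.05, log axis) in each lung library by dose and day, with females left of males, 1 point a library and bars at the group medians; numbers mark the libraries above 90 CPM. The highest points, 617 CPM in Lung_139 and 397 CPM in number 171, sit in the 1250 ppm females of day 5 and the vehicle females of day 28.

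Lep ran at a much lower level. Its median was 0.2 CPM, it was undetected in 37 libraries, and it passed 5 CPM in 1 library, Lung_139, at 80.6 CPM. The next highest, number 161, a day 28 vehicle male, had 3.82 CPM. Number 171, second in Adipoq, had only 3.19 CPM of Lep.

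The lipid droplet genes divided into 2 patterns. Plin1 ran between 0.136 and 282 CPM and was detected in every library. Cidec ran between 14.9 and 551 CPM, so its lowest library held more than the median Plin1 library. In the 35 libraries with Adipoq below 1 CPM, Cidec still lay between 14.9 and 28.7 CPM (median 20.2), against a median of 26.5 CPM over all libraries, while Plin1 was at most 2.04 CPM. Its median was 25.2 CPM in the libraries with 1 to 10 CPM of Adipoq and 35.8 CPM in those with 10 to 50 CPM, so Cidec was above 0 where Adipoq was nearly absent and higher where Adipoq was higher. Per kilobase of exon, Cidec had a median of 14.3 CPM against 4.17 CPM for Adipoq, 37.4 CPM for Cfd, 0.707 CPM for Plin1, 0.0596 CPM for Lep and 0.0369 CPM for Ucp1.

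Ucp1 stood apart in both level and pattern. It was undetected in 78 libraries and had a median of 0.0604 CPM, below the level of 3 counts in every library. A level above 10 CPM occurred in 2 libraries, number 238, a day 28 female at 2500 ppm with 110 CPM, and Lung_133, a day 5 male at 1250 ppm with 106.3 CPM. The next were Lung_155 at 8.75 CPM, Lung_123 at 5.82 CPM and Lung_160 at 5.23 CPM, all day 5 females, and number 225 at 3.31 CPM, a day 28 male. In Lung_139 and number 171, the highest in Adipoq, Ucp1 was at 0.13 and 0.521 CPM.

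**Figure D2:**
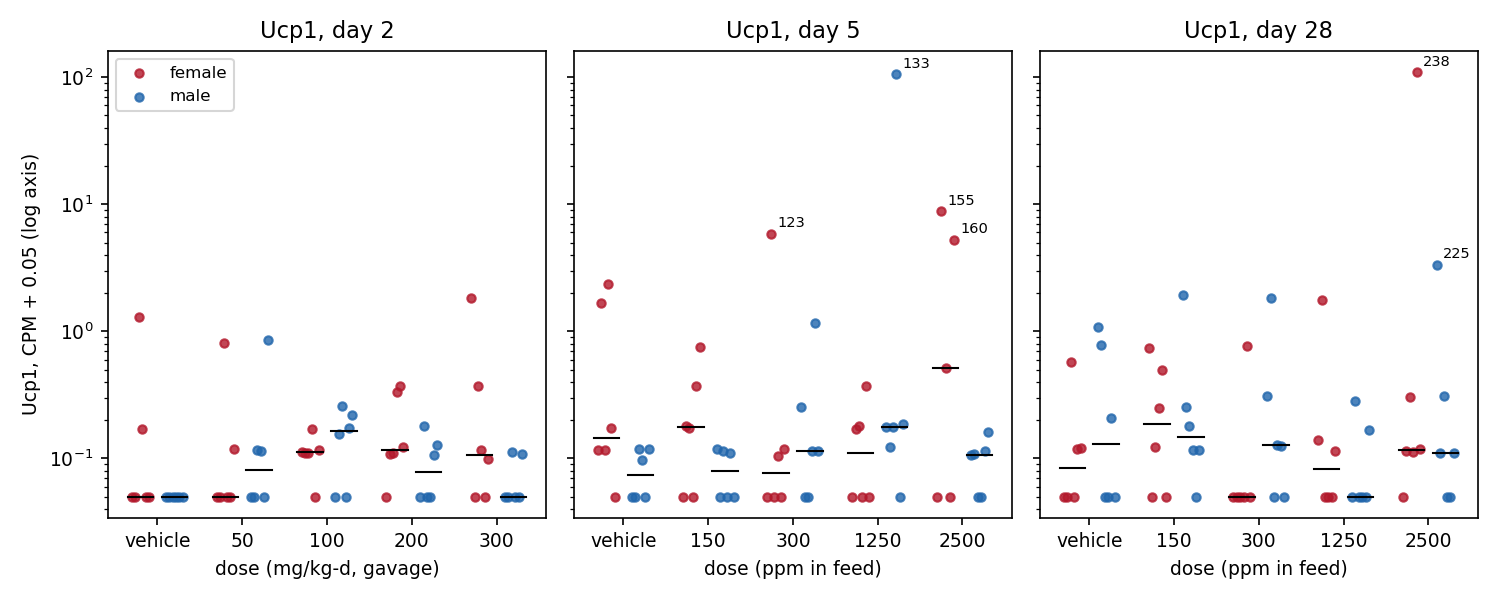
Ucp1 (CPM + 0.05, log axis) in each lung library by dose and day, females left of males, bars at the group medians. Lung_133 (106.3 CPM) and number 238 (110 CPM) lie above the rest, whose highest is Lung_155 at 8.75 CPM, and most libraries lie at the bottom at 0 or 1 count.

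Set against Adipoq library by library, Plin1 and Cfd rose almost in proportion. Within a day, over 59 or 60 libraries, the Pearson r of log2 CPM with Adipoq was 0.925 to 0.952 for Plin1 and 0.970 to 0.983 for Cfd. Lep gave 0.764 to 0.851, Cidec 0.708 to 0.803 and Ucp1 0.319 to 0.573. Spearman's rho was 0.962 to 0.970 for Plin1, 0.972 to 0.982 for Cfd, 0.758 to 0.865 for Lep, 0.707 to 0.857 for Cidec and 0.351 to 0.592 for Ucp1. Of the 15 relations, permutation tests (two-sided, 100000 resamples, Benjamini-Hochberg over the 15) gave adjusted p of 1.2e-05 for all of the Plin1, Cfd, Lep and Cidec relations, where the raw p of 1e-05 is the smallest that can be had. For Ucp1 the adjusted p was 0.012 at day 2, 6.4e-05 at day 5 and 2.3e-05 at day 28. With group means subtracted, the lowest r was 0.289, for Ucp1 at day 2, and without the 2 libraries farthest from the median of Adipoq it was 0.350, for the same gene and day. Genes measured in the same library share its depth and dissection.

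**Figure D3:**
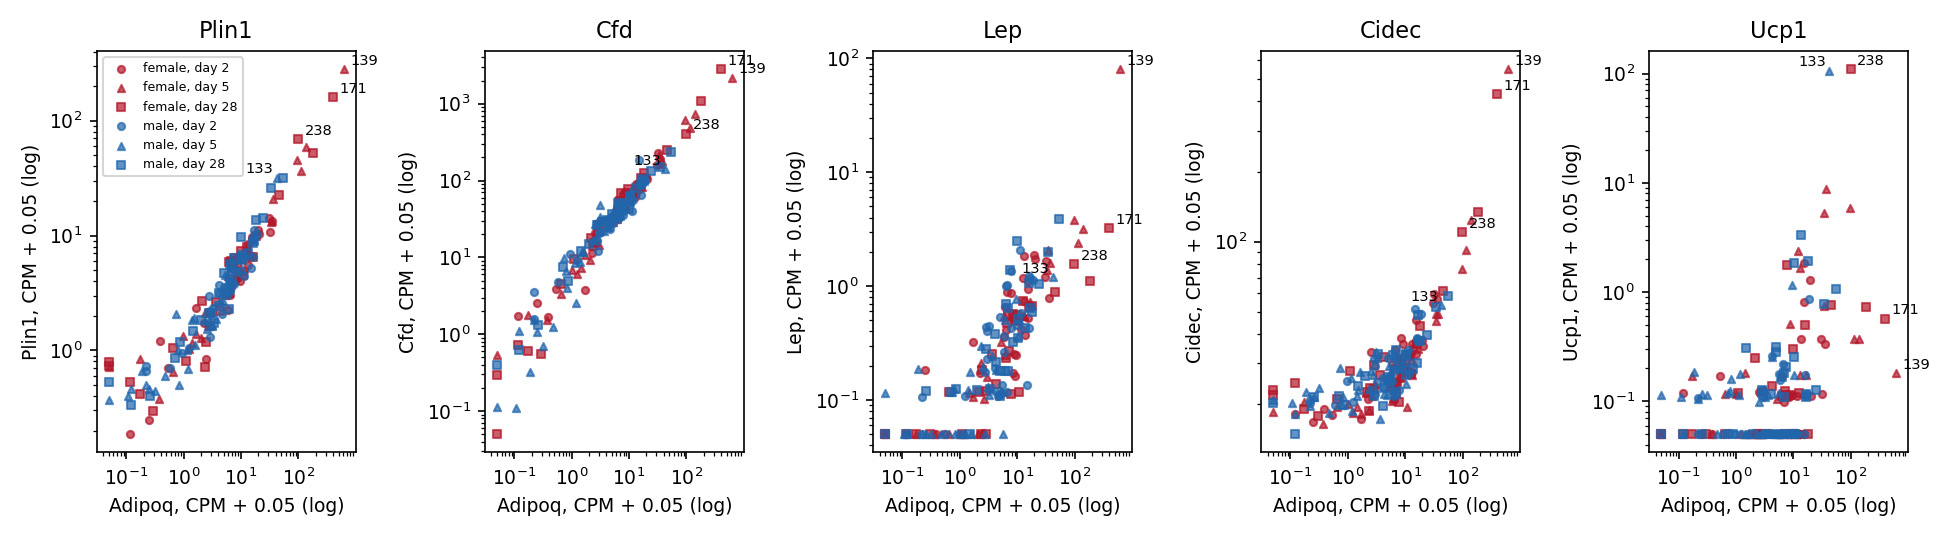
Plin1, Cfd, Lep, Cidec and Ucp1 against Adipoq (CPM + 0.05, log axes) in all lung libraries, with colour for sex and shape for day. Plin1 and Cfd follow Adipoq closely, Cidec rises with Adipoq from 14.9 CPM at the lowest, and Ucp1 has Lung_133 and number 238 far above the libraries with most Adipoq, Lung_139 and number 171.

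The proportions of the 6 transcripts were not constant between libraries. In the 59 female and 53 male libraries with 50 or more Adipoq counts, Plin1 had 28.4 to 95.9 counts per 100 Adipoq counts (median 56.9) and Cfd 334 to 1241 (median 597). Lep had 0 to 24.3 per 100 (median 4.06), with 13.1 in Lung_139 against 0.805 in number 171 and 0.582 in number 185. Ucp1 had 0 to 251 per 100 (median 0.737), with 110.6 in number 238, 251 in Lung_133, 23.8 in Lung_155, 0.131 in number 171 and 0.0211 in Lung_139. The 5 libraries over 100 CPM of Adipoq had Ucp1 between 0.13 and 0.683 CPM. The 2 libraries over 10 CPM of Ucp1, number 238 and Lung_133, had 99.4 and 42.3 CPM of Adipoq, against a median of 5.75 CPM over all lung libraries. Among the 5 libraries over 100 CPM of Adipoq, Lung_139 stood above the others in Lep.

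Over all lung libraries, with group means subtracted, the genes outside the list most like Adipoq in their log2 CPM, among 15275 genes with a mean of at least 0.5 CPM, were Car3 (r 0.97), carbonic anhydrase 3, Retn (0.95), the hormone resistin, Tmem45b (0.91), Acvr1c (0.88), an activin receptor, B3galt2 (0.88), Fabp4 (0.87), the fatty acid carrier of fat cells, Pck1 (0.87), phosphoenolpyruvate carboxykinase, Plin4 (0.84), a lipid droplet coat protein, Thrsp (0.84) and Penk (0.83). Among the 10 most like Ucp1 were Cidea (0.68), a lipid droplet protein of brown fat, Gpd1 (0.64), glycerol-3-phosphate dehydrogenase, Aqp7 (0.61), the glycerol channel of fat cells, Fabp4 (0.61), Ephx2 (0.59), Thrsp (0.59), Mrap (0.57), Mlxipl (0.57) and Cox8b (0.57), a cytochrome oxidase subunit of brown fat and heart. Car3 ran between 0.477 and 4033 CPM and was highest in Lung_139, where Retn was also highest at 422 CPM. Cidea was highest in number 238 at 51.4 CPM and second in Lung_133 at 34.01 CPM, with a median of 1.52 CPM.

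Other fat genes were read as lists. The 23 measured genes of a list of other adipocyte genes summed to 22804 CPM in Lung_139 and 13881 CPM in number 171, against a median of 2924 CPM over the libraries. Of that list Scd1 alone had a median of 1895 CPM, and its r with Adipoq was 0.27 (group means subtracted). A list of 18 brown adipocyte genes summed to 354 CPM in number 238 and 293 CPM in Lung_133, the 2 highest of all libraries, against a median of 173 CPM. In it Cidea, Cox8b, Elovl3 and Otop1 had their highest value in number 238 and their second highest in Lung_133. Ebf2 was also highest in number 238, and Cpt1b and Letmd1 in Lung_133. The rest were highest in other libraries: Cox7a1, Dio2, Ppargc1a, Prdm16, Slc27a2, Kcnk3, Zic1, Fabp3, Gyk, Pank1 and Ucp3. Prdm16 had an r of -0.18 with Ucp1 (group means subtracted). Zic1, a gene of classical brown fat precursors, was at 0 in both.

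Heart muscle markers were also high in those 2 libraries. The 10 heart muscle genes summed to 1822 CPM in Lung_133, the highest library, and to 1721 CPM in number 238, with a median of 556 CPM over all libraries. Libraries with little Ucp1 had such sums too. Number 61, a day 2 female at 200 mg/kg-d, was second at 1779 CPM, and no day 2 library passed 1.78 CPM of Ucp1. Number 162, a day 28 vehicle male, had 1718 CPM, and no day 28 male passed 3.31 CPM of Ucp1. In the cartilage list, number 238 was highest at 121.03 CPM, while Lung_133 had 25.7 CPM, against a median of 22.1 CPM. In the thymus list Lung_133 had 71.1 CPM and number 238 had 77.6 CPM, against a median of 65.1 CPM. Lung_139 summed to 518 CPM in the heart muscle list and 125.3 CPM in the thymus list, and number 171 to 196 and 93.4 CPM. Of the thymus list, Cd1d1 was highest in Lung_139 (64.9 CPM) and second in number 171 (43.9 CPM). Its median was 13.5 CPM, and Rag2 and Ptcra were at 0 in both libraries. The skeletal muscle list summed to at most 100.8 CPM in any of these 4 libraries, Lung_133, Lung_139, 171 and 238. The part of these tissues in the Adipoq or Ucp1 values was not tested.

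**Figure D4:**
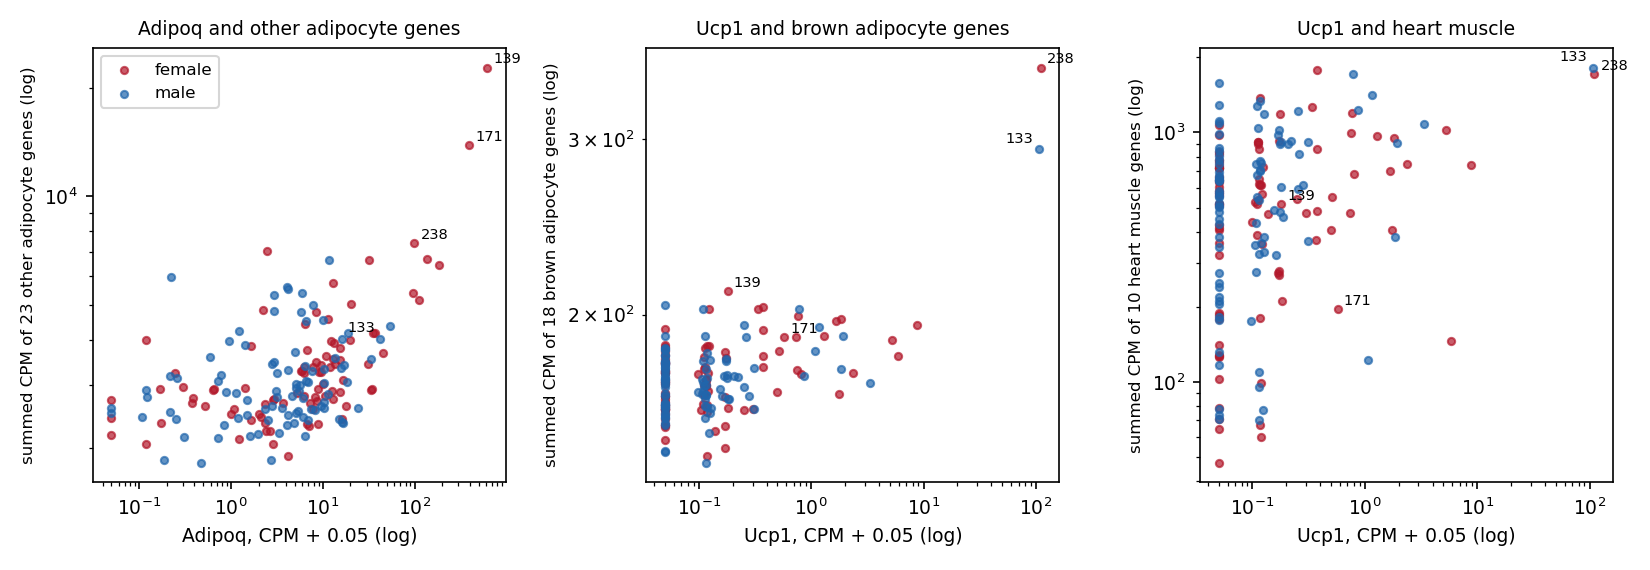
Summed CPM of 23 other adipocyte genes against Adipoq, and of 18 brown adipocyte and 10 heart muscle genes against Ucp1 (CPM + 0.05, log axes), 1 point a library. In the adipocyte panel the highest sums are 22804 CPM in Lung_139 and 13881 CPM in number 171, and in the brown adipocyte panel 354 CPM in number 238 and 293 CPM in Lung_133.

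The study's comparison is 4-MEI against vehicle, within sex and day, and few tests of the 6 genes were called. Each of the 24 dose groups was set against the vehicle group of its day and sex, which gave 136 tests of a member, since Ucp1 fell under the low-count filter at day 2. Of these, 3 passed an adjusted p of 0.05 in edgeR's quasi-likelihood test with Benjamini-Hochberg adjustment over all genes tested, and 72 had a positive log2 fold change. The log2 fold change was at least 1 in absolute size in 65, so many large fold changes were not called. In no pair of member and dose group did the treated values lie wholly on 1 side of the vehicle values. Neither the counts of fold changes nor that of such pairs is given over all genes, so they have no background beside them.

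The share of all genes called gives the background for the counts of calls, listed here by rising dose. In males it was 0, 0.00656, 0 and 0.21% at day 2, 0, 0, 0.0383 and 0% at day 5, and 0, 0, 0.032 and 0.0128% at day 28. In females it was 0, 0.00656, 5.41 and 8.73% at day 2, 0, 0.0128, 0.0447 and 0.0319% at day 5, and 0.032, 0.153, 0.0831 and 0.121% at day 28. Day 2 females at the upper doses were thus the dose groups in which the lung changed most by this count.

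The first call was in day 2 females at 200 mg/kg-d, where 5.41% of all 15240 genes tested were called. Cidec had 29.9, 36.1 and 56.6 CPM (lowest, median, highest) at 200 mg/kg-d, against 16.8, 19.5 and 37.9 CPM in vehicle females. The ranges overlap through number 12, the highest vehicle library, and the other 5 vehicle libraries lie at or below 27.5 CPM. Cidec rose by a log2 fold change of 0.83 (SE 0.23, adjusted p = 0.0216 in edgeR). At 300 mg/kg-d, where 8.73% of genes were called, it had 32.4, 35.6 and 46.1 CPM and a log2 fold change of 0.67 (SE 0.23, adjusted p = 0.052). Adipoq had a log2 fold change of 1.33 (SE 0.78, adjusted p = 0.355) at 200 mg/kg-d. Of the 23 other adipocyte genes tested there, 5 rose and none fell (median log2 fold change 0.56, against 0.0095 over all genes), among them Lpl (0.85), lipoprotein lipase, Plin4 (1.39), Pnpla2 (0.70), the fat triglyceride lipase ATGL, and Lipe (0.54), hormone-sensitive lipase. Number 64 of this group had the second highest Lpl (1153 CPM) and Pnpla2 (607 CPM) of all lung libraries. Its list sum was 7076 CPM, against 3350 to 4768 CPM in the rest of the group and 2620 to 5740 CPM in vehicle females. Its 6 members summed to 57.5 CPM, the lowest of the group, with Lep at 0. Number 12 also held liver transcripts, 340 CPM over 7 liver genes, against 2.32 to 4.18 CPM at 200 mg/kg-d and a median of 2.66 CPM in vehicle females. The cartilage list summed to between 30.7 and 48.1 CPM at 200 mg/kg-d, against 18.6 to 37.9 CPM (median 23.3) in vehicle females. The heart muscle list summed to 516, 614 and 1779 CPM (lowest, median, highest) at 200 mg/kg-d, against 71.1, 593 and 969 CPM in vehicle females. The part of these tissues in the Cidec change was not tested. Without number 12, Cidec had a log2 fold change of 1.03 (adjusted p = 0.00717 in edgeR). The call was lost when only the 2 groups entered the fit (adjusted p = 0.143) and when number 9, 13, 16, 61 or 64 was left out (adjusted p 0.0505 to 0.0623).

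The second call was Ucp1 in day 5 males at 1250 ppm, where 6 of 15675 genes, 0.0383%, were called. Ucp1 was at 106.3 CPM in Lung_133 and at most 0.136 CPM in the other 5 libraries at 1250 ppm, against 0 to 0.0692 CPM in vehicle males. Lung_133 is the only high value and the other 5 overlap the vehicle range. Summed counts were 1757 against 3 in vehicle males, a ratio of rates of 651 (95% exact interval 222 to 3157, counting error only). The fitted log2 fold change was 8.81 (SE 1.82, adjusted p = 0.0496 in edgeR), and without Lung_133 it was 1.27 (adjusted p = 0.918). The call was lost in 11 of the 12 fits that left out 1 library of the 2 groups, the exception being Lung_130. It was also lost with no low-count filter (adjusted p = 0.0758) and with Adipoq as a covariate (adjusted p = 0.23), and with only the 2 groups in the fit Ucp1 was not tested, being under the filter. The summed counts without Lung_133 were 6 against 3, with a ratio of 2.75 (interval 0.586 to 16.97). Adipoq, 42.3 CPM in Lung_133, had a log2 fold change of 2.00 (SE 1.40, adjusted p = 0.68) in that group.

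The third call was again Ucp1, in day 28 females at 2500 ppm, where 19 of 15646 genes, 0.121%, were called. Ucp1 was at 110 CPM in number 238 and at most 0.252 CPM in the other 5 libraries at 2500 ppm, against 0 to 0.521 CPM in vehicle females. The other 5 overlap the vehicle range entirely. Summed counts were 1687 against 10 in vehicle females, a ratio of rates of 156.8 (95% exact interval 85.1 to 328, counting error only), and without number 238 they were 7 against 10, a ratio of 0.775 (interval 0.251 to 2.26). The fitted log2 fold change was 7.17 (SE 1.51, adjusted p = 0.0305 in edgeR), and -0.37 (adjusted p = 0.983) without number 238. Leaving out vehicle number 170 or 176 gave an adjusted p of 0.05 or 0.12. DESeq2 gave no adjusted p for Ucp1 in this comparison, and with only the 2 groups in the fit it was under the low-count filter and not tested. Beside it, the heart muscle list summed to 475 to 1721 CPM at 2500 ppm, against 47.4 to 646 CPM in vehicle females, and the brown adipocyte list to 161 to 354 CPM at 2500 ppm, against 157.3 to 190 CPM in vehicle females. Of 7 skeletal muscle genes tested, 5 fell, with a highest sum of 100.8 CPM at 2500 ppm, against 1693 CPM in number 176 among vehicle females.

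The other members in day 28 females depended on 1 vehicle library, number 171. Adipoq had 3.61, 9.28 and 99.4 CPM (lowest, median, highest) at 2500 ppm, against 0, 1.94 and 397 CPM in vehicle females. Its median was higher at 2500 ppm than in vehicle females, but its mean was lower. The log2 fold change was -1.55 (SE 1.15, adjusted p = 0.672) in edgeR, and 3.08 (adjusted p = 0.428) without number 171. At 1250 ppm it was -3.87 (SE 1.31, adjusted p = 0.24), and 0.76 (adjusted p = 0.864) without number 171. At 150 and 300 ppm the Adipoq values, -0.99 and -2.38, became 3.64 and 2.25 without number 171, so the sign of the fold change in day 28 females was set by that library at all 4 doses.

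In day 5 females at 1250 ppm, where 0.0447% of all genes were called, Lung_139 carried the fold changes. Lep had 0, 0.278 and 80.6 CPM (lowest, median, highest) at 1250 ppm, against 0, 0.347 and 0.498 CPM in vehicle females. Its log2 fold change was 5.56 (SE 1.20, adjusted p = 0.0536 in edgeR), and 0.97 without Lung_139. Cidec had a log2 fold change of 2.24 (SE 0.54, adjusted p = 0.0915), and 0.45 without it.

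The difference between the sexes in the effect of the highest dose was tested directly on each day, and no member was called. Of the members, Ucp1 at day 28 had an unadjusted p under 0.05, with a log2 difference of 6.24 (SE 2.53, adjusted p = 0.508 in edgeR). In these 3 contrasts edgeR called 0 genes of the tables, and 1964, 549 and 1302 genes (day 2, day 5, day 28) had an unadjusted p under 0.05.

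Between the sexes, members differed at day 5. There, averaged over the 5 dose groups, 9.72% of 15675 genes were called, 5.59% as higher in females, and 5 of the 6 members were called, each higher in females. Adipoq was higher by a log2 difference of 3.0 (SE 0.61, adjusted p = 0.000487 in edgeR), with values from 0 to 617 CPM and a median of 6.20 CPM in 29 female libraries, against 0 to 42.3 CPM and a median of 1.49 CPM in 30 male libraries. Lep was higher by 3.41 (SE 0.75, adjusted p = 0.00146), with medians of 0.449 CPM in females and 0.0659 CPM in males. The ranges of the sexes overlap for each.

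Cfd was higher by 2.68 (SE 0.61, adjusted p = 0.00204), Plin1 by 2.39 (SE 0.53, adjusted p = 0.00155) and Cidec by 0.78 (SE 0.24, adjusted p = 0.0284) on the log2 scale. Ucp1 had a log2 difference of 1.35 (SE 1.09, adjusted p = 0.492). Of the 23 other adipocyte genes tested, 11 were higher in females and none lower, with a median log2 difference of 0.55 (-0.0037 over all genes), among them Retn (3.30), Car3 (2.54), Pck1 (2.21) and Fabp4 (2.02). Of the 14 brown adipocyte genes tested, 1 was higher, Dio2 (0.74), the deiodinase that makes active thyroid hormone, and 1 lower, Prdm16 (-0.12), a regulator of brown fat identity. The other adipocyte genes summed to 2119 to 22804 CPM in females (median 2898) and 1822 to 4029 CPM in males (median 2576). The heart muscle list summed to 67.2 to 1182 CPM in females (median 518) and 70.1 to 1822 CPM in males (median 371). Its part in the sex difference of the members was not tested. The adipocyte sums weigh mostly on Scd1, whose median was 1895 CPM over all lung libraries. Without Lung_111, Lung_123, Lung_133, Lung_139 and Lung_141 together, Adipoq (1.42, adjusted p = 0.0466), Plin1 (1.13, 0.0376) and Lep (1.59, 0.0412) still passed, and Cfd (1.09, 0.192) and Cidec (0.096, 0.599) did not. Without Lung_139 alone Cidec lost its call (0.42, adjusted p = 0.118), and without Lung_133 alone Ucp1 gained one (2.86, adjusted p = 0.0136).

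At day 2, where 4.53% of genes were called, no member passed, with log2 differences, female minus male, from 0.17 to 0.71 and 1 of the 5 tested members, Adipoq, at an unadjusted p under 0.05. At day 28, where 23.8% of genes were called, none passed either: Adipoq was at 1.25 (SE 0.55, adjusted p = 0.0898) and Cfd at 1.34 (SE 0.56, adjusted p = 0.0733), these, and Cidec, being under an unadjusted p of 0.05. The medians were close, at 6.48 CPM of Adipoq in females and 6.61 CPM in males, and 42.5 and 39.6 CPM of Cfd. With 1 library left out at a time, Adipoq ran from 0.32 to 1.32, Cfd from 0.44 to 1.40 and Cidec from 0.13 to 0.57. DESeq2 called Cfd at day 28 (adjusted p = 0.0484), and the share of all genes it called is not given here. In 1 joined fit of the 3 lung tables, chosen after the data were seen, the sex difference of Lep was larger at day 5 than at day 28 by 3.77 (SE 0.81, adjusted p = 0.00218), where 8.30% of genes were called, and no other member passed. Without Lung_139 the day 5 difference of Lep was 2.49 (adjusted p = 0.00188), and the joined fit was not run without it. Between day 5 and day 2 no gene at all passed (0 of 16130, with 1479 at an unadjusted p under 0.05).

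**Figure D5:**
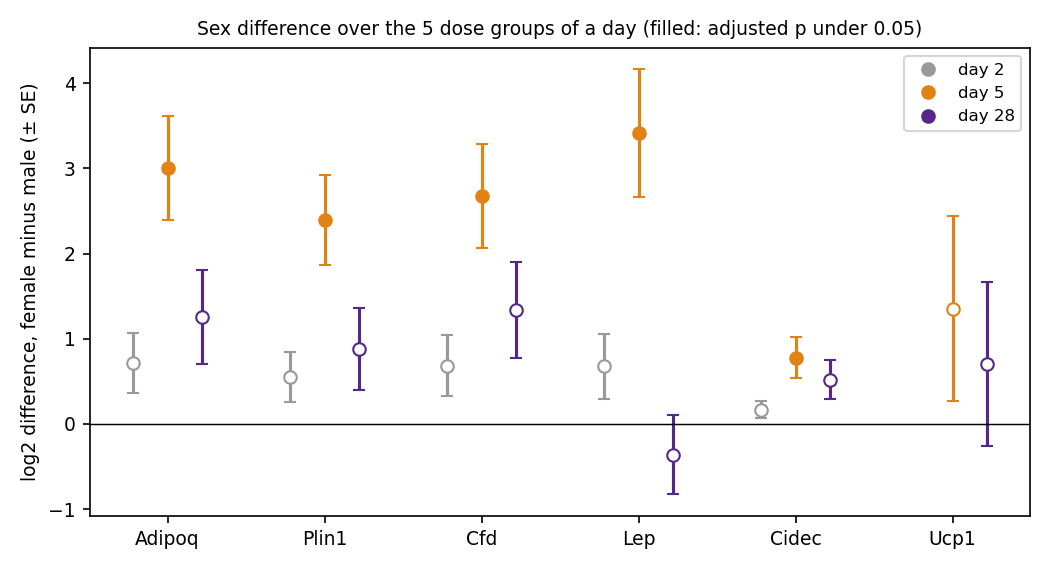
Log2 difference, female minus male, averaged over the 5 dose groups of each day (points, with SE), filled where adjusted p was under 0.05 in edgeR. Of the 6 members, 5 pass at day 5, led by Lep at 3.41 and Adipoq at 3.0, and none at day 2 or day 28. Ucp1 was not tested at day 2.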

How the data were processed

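RNA sequencing read counts per gene were deposited by the authors as 1 table per organ and day, with 24421 genes each. Per the submitters' processing notes, Trimmomatic, Bowtie2, SAMtools and HTSeq were used on mm10, with versions and settings not given in the sources. Per the labels' protocols the kit was stranded. The counting strand is not known. An unnamed column of the day 28 lung table (1 in all), the sum of the 60 libraries, was not used. Groups follow the titles.

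The 3 lung tables were fitted separately in edgeR 4.0.16 (R 4.3.3): TMM scaling, filterByExpr, 10 group means, robust quasi-likelihood F test, Benjamini-Hochberg over the genes tested, threshold 0.05. The fit was tested on simulated counts. CPM use TMM-scaled totals. Levels per kilobase use the exon union of GENCODE M21. Alternatives were DESeq2 1.42.0, other scaling, no filter, 2 groups only, libraries left out, Adipoq as covariate and 1 joined fit of the 3 tables (the last 2 chosen after seeing the data). Liver libraries gave levels only.

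The 6 genes and marker lists were chosen with earlier results of these data known. Named genes are the 6, the 10 most like Adipoq and the 10 most like Ucp1, up to 4 called genes per list, and libraries at the extremes; 1 of the genes most like Ucp1 is not reported here. Counting intervals cover counting error only. Tusc5 was in the tables and Trarg1, its newer symbol, was not. Sequences came from RefSeq.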

Additional observations from a re-analysis of the deposited data

Results flagged for a closer look

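The 6 genes in 30 groups were examined for a library standing apart from the others of its group on the log2(CPM + 0.5) scale by Dixon's ratio, leaving out 21 pairs of gene and group whose highest library had under 10 counts, and 30 pairs held one. Chance flags about 1 in 20 groups, but the pairs entered by their highest library, so that rate is no reference for the count of 30. They fell in 18 libraries, and in 1 case it was the lowest library. Number 238 accounted for 5 of them: in day 28 females at 2500 ppm it had Adipoq at 99.4 CPM (others 3.61 to 12.6), Plin1 at 68.7, Cfd at 408, Cidec at 110 and Ucp1 at 110 CPM. Lung_123, a day 5 female at 300 ppm, accounted for 4, with Plin1 at 45.9, Lep at 3.79, Cidec at 76.2 and Ucp1 at 5.82 CPM. Number 171, a day 28 vehicle female, had Lep at 3.19 and Cidec at 430 CPM. Lung_133, a day 5 male at 1250 ppm, had Cidec at 53.4 and Ucp1 at 106.3 CPM. Lung_139 had Lep at 80.6 CPM and number 185, a day 28 female at 150 ppm, Cidec at 134.04 CPM.

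The day 2 males at 100 mg/kg-d had Adipoq at 16.01 and Plin1 at 9.71 CPM in number 39. The day 2 females at 300 mg/kg-d had Cidec at 46.1 and Ucp1 at 1.78 CPM in number 73. The day 5 males at 300 ppm had Lep at 0.722 and Ucp1 at 1.12 CPM in Lung_119. The 1 low case was Cfd in day 28 females at 1250 ppm, at 0.247 CPM in number 220, against 15.5 to 54.3 CPM in the others. Ucp1 alone stood out in number 218 (1.70 CPM), number 207 (0.715), number 178 (1.87), number 225 (3.31), number 194 (1.79), number 28 (0.752), number 12 (1.24) and number 24 (0.812). Ucp1 made up 13 of the 30.

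The sex difference of Lep, female minus male, was larger at day 5 than at day 28 by 3.77 on the log2 scale (adjusted p = 0.00218 in edgeR, where 8.30% of genes were called). The joined fit behind it was chosen after the data were seen and was not run without Lung_139, which had 80.6 CPM of Lep. Without Lung_139 the day 5 difference of Lep was 2.49, against 3.41 with it.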

How the results depend on the processing

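No paired analysis was possible because the lung groups compared share no title numbers. Under the alternatives, 264 values of the counts called, correlations and likeness stayed close to the reported ones and 33 did not. With DESeq2, 0 members were called in day 28 females at 2500 ppm (Ucp1 without an adjusted p), 1 at day 28 between the sexes, 1 in day 2 females at 300 mg/kg-d, and 2 in day 5 females at 1250 ppm. The share of all genes called is not given for the alternatives in this paragraph, so their counts have no background beside them. With only the 2 groups in the fit, 0 were called in day 28 females at 2500 ppm and day 5 males at 1250 ppm, where Ucp1 fell under the filter, 0 in day 2 females at 200 mg/kg-d, and 1 (Cidec) in day 2 females at 300 mg/kg-d. With no low-count filter, 0 were called in day 5 males at 1250 ppm. With Adipoq as a covariate, an alternative chosen after seeing the data, 0 were called in day 2 females at 200 mg/kg-d and day 5 males at 1250 ppm, and the log2 fold changes changed sign to 0.070 (Plin1) and 0.85 (Lep) in day 28 females at 2500 ppm, -0.42 (Plin1) in day 2 females at 200 mg/kg-d, and -0.48 (Cfd) and -0.15 (Cidec) in day 5 males at 1250 ppm. Of the 10 genes most like Ucp1, 6 were shared under Spearman's rho and 6 under a prior count of 2. Without Lung_111, Lung_123, Lung_133, Lung_139 and Lung_141, also chosen after seeing the data, 3 members were called between the sexes at day 5.

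Leaving out 1 library at a time gave 0 to 1 members called in each of the 3 dose groups with a call, and 4 to 6 between the sexes at day 5, with 4 without Lung_139 and 6 without Lung_133. The log2 fold changes at day 28 ran, in females at 1250 ppm, from -3.89 to 0.76 (Adipoq), -3.93 to 0.57 (Cfd), -3.01 to 0.84 (Plin1) and -1.58 to 1.15 (Lep), and for Adipoq from -1.01 to 3.64 at 150 ppm and from -2.40 to 2.25 at 300 ppm. At 2500 ppm they ran from -3.09 to 3.08 (Adipoq), -3.40 to 2.28 (Cfd), -2.33 to 3.02 (Plin1), -0.61 to 2.64 (Lep), -1.79 to 0.76 (Cidec) and -0.37 to 8.92 (Ucp1). The upper ends are those without number 171, and the low end of Ucp1 is the one without number 238. The sex difference of Ucp1 at day 28 ran from -0.81 to 0.76. Lep in day 2 females at 200 mg/kg-d ran from -0.77 to 0.23. In day 5 males at 1250 ppm Cidec ran from -0.16 to 0.24 and Plin1 from -0.10 to 2.16, low without Lung_133. The causes were not tested. Depth limits Lep and Ucp1 most, whose medians rest on a few counts.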
